A study of Homo sapiens with 2 samples.

Results

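The 4 *ID* genes, the BMP-activated SMAD genes *SMAD1*, *SMAD5* and *SMAD9*, the inhibitory SMAD genes *SMAD6* and *SMAD7* and the pseudoreceptor gene *BAMBI* were compared between L3.6 cells with and without knockdown of ESE1. These 10 genes are 10 of the 60612 listed and were found by gene symbol, and all 10 carry the KEGG annotation of the TGF-β pathway. The group was chosen by the FPKM values of *ID3* in these same libraries, to which its paralogs, the BMP SMADs and the feedback inhibitors were added, so the *ID3* difference is a description and supports nothing by itself. L3.6 is an established human pancreatic ductal adenocarcinoma (PDAC) cell line. The shCtrl cells carried a scrambled shRNA, although the label of this library gives no treatment, and the shESE1 cells carried a lentiviral shRNA against *ELF3*, the gene of the epithelial ETS factor ESE1. Both were puromycin-selected pools of L3.6 cells, and which of the shRNAs against ESE1 was used for sequencing is not given in the sources used here. One poly(A) library was sequenced per condition, so n = 1 in each, no test was made, and every difference describes these 2 libraries.

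In the BMP branch of TGF-β signaling, a ligand joins type I and type II receptors, and the type I receptor phosphorylates SMAD1, SMAD5 or SMAD9. These bind SMAD4, enter the nucleus and switch on target genes, of which the *ID* genes are the best known. ID proteins have a helix-loop-helix but no basic region, so they hold E proteins and other bHLH factors in dimers that cannot bind DNA, and they are known for keeping cells undifferentiated and dividing. SMAD6, SMAD7 and BAMBI are themselves targets of the pathway and act against it, SMAD6 and SMAD7 inside the cell and BAMBI as a receptor without a kinase domain.

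The 250 bases upstream of the RefSeq gene start are shown for *ID1*, *ID2* and *ID3*, the *ID* genes with higher values in shESE1 than in shCtrl at 1 FPKM or more, and for *SMAD5*, which also passed 2-fold, since ESE1 is a DNA-binding factor and *ID* genes are SMAD targets. FPKM is the number of fragments scaled to transcript length and to the mapped total. The sequences are RefSeq windows of GRCh38.p14, and capitals mark the letters GGAA, the core bound by ETS factors, the SMAD box CAGAC and the BMP-responsive palindrome GGCGCC, each on either strand. The windows are chr1:23559502-23559751 (minus strand) for *ID3*, chr20:31605039-31605288 (plus) for *ID1*, chr2:8681806-8682055 (plus) for *ID2* and chr5:136132595-136132844 (plus) for *SMAD5*.
ID3: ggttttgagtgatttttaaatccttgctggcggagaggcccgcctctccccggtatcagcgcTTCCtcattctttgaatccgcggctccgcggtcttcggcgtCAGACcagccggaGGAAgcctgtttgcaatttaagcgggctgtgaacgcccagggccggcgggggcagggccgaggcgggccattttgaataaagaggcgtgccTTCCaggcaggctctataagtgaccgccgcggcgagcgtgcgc
ID1: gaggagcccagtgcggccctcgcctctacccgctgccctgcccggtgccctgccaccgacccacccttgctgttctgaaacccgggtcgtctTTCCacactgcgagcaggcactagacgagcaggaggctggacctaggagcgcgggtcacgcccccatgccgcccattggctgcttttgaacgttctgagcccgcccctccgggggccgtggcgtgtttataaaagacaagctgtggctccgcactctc
ID2: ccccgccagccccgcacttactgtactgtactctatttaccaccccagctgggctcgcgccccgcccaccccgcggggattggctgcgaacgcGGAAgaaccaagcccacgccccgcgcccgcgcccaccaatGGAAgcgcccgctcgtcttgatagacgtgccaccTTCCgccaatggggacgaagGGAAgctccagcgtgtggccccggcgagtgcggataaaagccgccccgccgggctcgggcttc
SMAD5: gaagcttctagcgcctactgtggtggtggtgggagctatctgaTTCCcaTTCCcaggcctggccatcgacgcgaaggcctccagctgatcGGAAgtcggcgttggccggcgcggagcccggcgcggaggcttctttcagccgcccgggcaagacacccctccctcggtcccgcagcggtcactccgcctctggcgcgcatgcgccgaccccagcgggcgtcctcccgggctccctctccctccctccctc
The *ID3* window held CAGAC once, at −147 from the gene start, and GGAA 3 times, at −188, −134 and −43. GGAA was found once in the *ID1* window, at −158, 4 times in the *ID2* window and 3 times in the *SMAD5* window, and these 3 windows held no CAGAC. None of the 4 windows held the palindrome GGCGCC. Among the genes not shown, CAGAC was also found in windows of *ID4*, *BAMBI*, *SMAD1* and *SMAD7*, but not of *SMAD6* or *SMAD9*. GGCGCC was found in windows of *BAMBI* and *SMAD1*. Among all 35116 windows of the same length, 92.7% held GGAA, 38.0% CAGAC and 16.4% GGCGCC. A match of letters is a description and not a binding site, and the BMP-responsive element known for *ID1* lies farther upstream than the window.

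The count table summed to 56853971 for shCtrl and to 60786475 for shESE1. *ELF3* was at 20.4 FPKM in the shCtrl library and 10.7 FPKM in the shESE1 library, from 9869 and 5624 counts, so the targeted transcript was lower but still present in the knockdown library. Mitochondrial transcripts made up 12.4% of shCtrl counts and 3.79% of shESE1 counts. On the scale used for counting below, leaving mitochondrial genes out of the totals put *SMAD5* just under 2-fold. *ID2* was just under 2-fold with and without them, and its call moved as CPM and as TPM. The part of mitochondrial transcripts in the values was not tested further. All 7 ductal epithelial markers were above 1 FPKM in both libraries, 4 with more FPKM in shESE1 and 3 with less. Higher were *KRT7* (336 and 435 FPKM), *KRT8* (234 and 271), *KRT18* (330 and 392) and *KRT19* (464 and 606). Lower were *EPCAM* (117 and 110 FPKM), *MUC1* (5.41 and 2.48) and *CDH1* (16.3 and 6.95), of which only *CDH1* passed 2-fold on the reported scale. As TPM 0 of the 7 were at least 2-fold lower, and 2 were as CPM or without mitochondrial genes in the totals. Of 20 markers of other cells 4 reached 1 FPKM, and the summed level of the 20 was 14.4 FPKM in the shCtrl library and 13.2 in the shESE1 library. Those 4 were *CD68* (3.70 and 7.94 FPKM), *COL1A1* (4.53 and 2.25), *CDH5* (1.18 and 1.16) and *CEL*, at least 2-fold lower in shESE1 (3.57 and 1.12). *PTPRC*, *CD3E*, *COL1A2*, *DCN* and *INS* had 0 counts in both, which allows up to 3 counts of each library total.

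Of the 10 genes, 8 were higher and 2 lower in FPKM in the shESE1 library. For 6 of the higher genes and 1 of the lower genes, the 95% exact (Clopper-Pearson) interval of the ratio lay wholly on one side of 1, and for 3 it included 1. The shares of all genes that were higher, lower or beyond counting error are not given here, so these counts show nothing particular to the 10. These intervals cover counting error only and not the difference between cultures, and in bulk RNA a change in the number of expressing cells and a change in RNA per cell cannot be told apart. On the scale used for counting, log2((shESE1 FPKM + 1)/(shCtrl FPKM + 1)), 7 of the 10 genes reached 1 FPKM in at least 1 library, 2 of them were at least 2-fold higher, *ID3* and *SMAD5*, and 0 were at least 2-fold lower. Among all 12520 genes past this filter 3.14% were at least 2-fold higher and 3.26% at least 2-fold lower. The group was chosen by *ID3*, so its call was fixed in advance, and *SMAD5* was the only other gene called. The count is thus no support when set beside the share of all genes. *ID2* passed the filter only through the shESE1 library, so it could only be higher there, and the count over the genes past the filter is no support for a direction. The scale understates differences of genes near 1 FPKM, and of the 5756 genes whose higher level was under 5 FPKM, 1.62% were at least 2-fold higher.

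**Figure D1:**
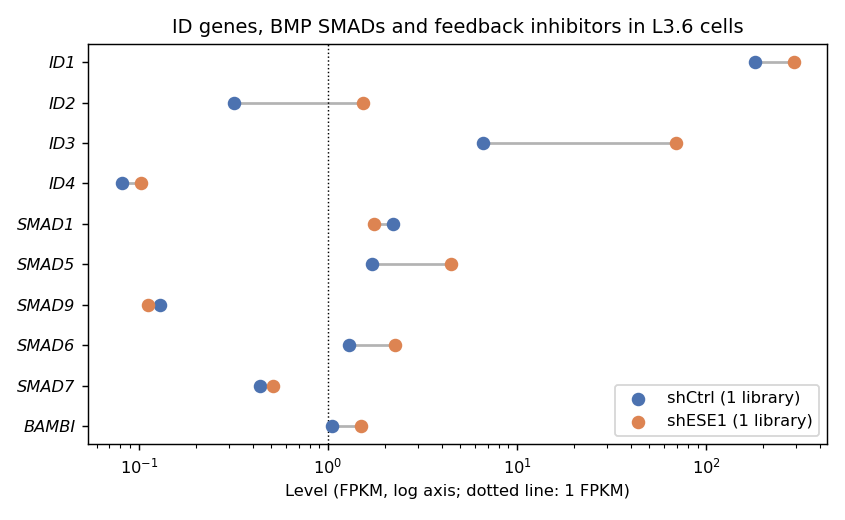
Level of each gene in FPKM on a log axis, with 1 point for the shCtrl library and 1 for the shESE1 library, joined by a line. *ID1* is the highest in both libraries (181.6 and 290.6 FPKM) and *ID3* has the widest gap (6.61 and 69.3 FPKM).

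The *ID* genes differed from one another in level by over 3 orders of magnitude and in how far the libraries stood apart. *ID3* (ENSG00000117318, chromosome 1, 23557926 to 23559501, minus strand) was at 6.61 FPKM in the shCtrl library and 69.3 FPKM in the shESE1 library, from 667 and 7611 counts. The ratio was 10.5, with an exact interval of 9.69 to 11.4, and the log2 change with the pseudocount was 3.21. This gene moved from place 5098 to place 604 in the order of all genes by FPKM, and its log2 change was the 7th highest of the 12520 genes compared.

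*ID1* (ENSG00000125968, chromosome 20, 31605283 to 31606515, plus strand), the classic BMP-induced member of the family, was the main *ID* transcript of L3.6 cells. Its level was 181.6 FPKM in the shCtrl library and 290.6 in the shESE1 library, from 15071 and 26287 counts, which places it 189th and 131st among all genes. The ratio was 1.60 (1.57 to 1.63) and the log2 change 0.68, under the 2-fold threshold. *ID1* thus had a far smaller ratio than *ID3*.

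*ID2* (ENSG00000115738, chromosome 2, 8678845 to 8684453, plus strand), which in other cells is induced by BMP and by MYC, was at 0.319 FPKM in the shCtrl library and 1.53 in the shESE1 library, from 49 and 251 counts. Its ratio of 4.80 (3.53 to 6.67) was second to that of *ID3* among the 10 genes. With the pseudocount the log2 change was 0.94, just short of 2-fold. *ID4*, the member best known from brain and mammary gland, was near absent, at 0.0815 FPKM in the shCtrl library and 0.103 in the shESE1 library (22 and 30 counts), and a difference was not detectable at this depth (ratio 1.27, interval 0.706 to 2.30).

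Because FPKM depends on the library total, the *ID* genes were also set against each other within each library, where that total drops out. *ID3* made up 3.51% of the summed *ID* FPKM in shCtrl and 19.2% in shESE1, while *ID1* made up 96.3% and 80.4%. In counts, *ID3* was 667 of 15809 *ID* counts in shCtrl, or 4.22% (exact interval 3.91% to 4.54%), and 7611 of 34179 in shESE1, or 22.3% (21.8% to 22.7%). *ID1* stood 27.5-fold above *ID3* per length in shCtrl and 4.19-fold above it in shESE1. The summed level of the 4 genes was 188.6 FPKM in the shCtrl library and 361.6 in the shESE1 library, a ratio of 1.92. *ID1* was the most abundant in both libraries, and its share was lower in shESE1 while that of *ID3* was higher.

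**Figure D2:**
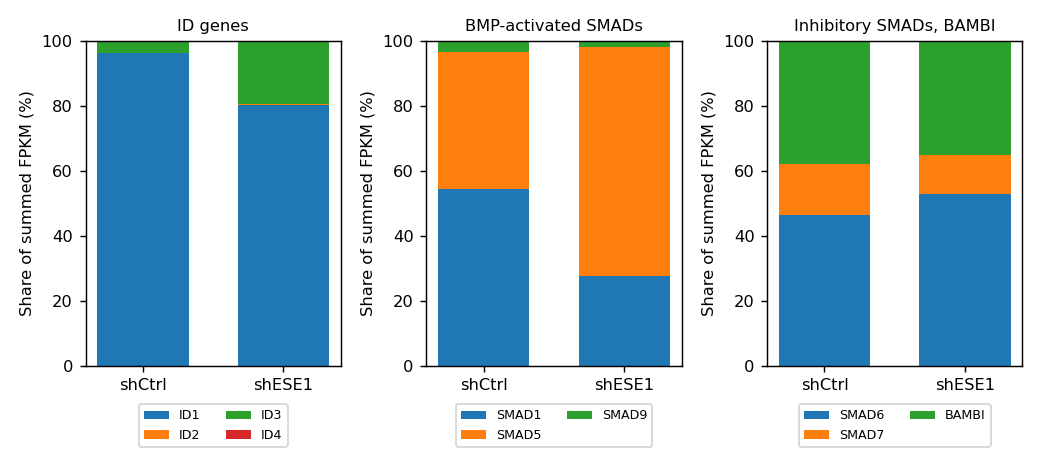
Share of each gene in the summed FPKM of its group (vertical axis, percent) in the shCtrl and shESE1 library. *ID3* goes from 3.51% to 19.2% of the *ID* genes, and *SMAD5* from 42.3% to 70.5% of the BMP-activated SMADs.

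The BMP-activated SMADs did not differ in 1 direction. *SMAD5* (ENSG00000113658, chromosome 5, 136132845 to 136188747, plus strand) was at 1.72 FPKM in the shCtrl library and 4.47 in the shESE1 library, from 1049 and 2970 counts. The ratio was 2.60 (2.42 to 2.79) and the log2 change with the pseudocount 1.01. That value lies just inside 2-fold as *ID2* lies just outside, and it was 0.96 after scaling by the median ratio of expressed genes, 0.93 without mitochondrial genes in the totals and 0.50 with a pseudocount of 5 FPKM.

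*SMAD1* (ENSG00000170365, chromosome 4, 145481194 to 145559176, plus strand), whose protein is highly similar to SMAD5 and carries the same signal, was at 2.21 FPKM in the shCtrl library and 1.76 in the shESE1 library, from 1058 and 919 counts, a ratio of 0.796 (0.728 to 0.870). *SMAD9* was at 0.129 and 0.112 FPKM (51 and 48 counts), and the interval of its ratio, 0.570 to 1.31, included 1. Per length, *SMAD5* was at 0.776 times the level of *SMAD1* in shCtrl and at 2.54 times its level in shESE1. Within the 3 genes, *SMAD5* was 48.6% of the shCtrl counts (46.5% to 50.7%) and 75.4% of the shESE1 counts (74.1% to 76.8%). The sum of the 3 was 4.06 FPKM in the shCtrl library and 6.35 in the shESE1 library.

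None of the feedback inhibitors reached 2-fold. *SMAD6* and *BAMBI* had more FPKM in shESE1 beyond counting error, and *SMAD7* did not. *SMAD6* (ENSG00000137834, chromosome 15), which binds activated BMP SMADs and receptors, was at 1.29 FPKM in the shCtrl library and 2.25 in the shESE1 library, from 744 and 1414 counts, a ratio of 1.75 (1.60 to 1.91) and a log2 change of 0.51. *BAMBI* (ENSG00000095739, chromosome 10) was at 1.05 and 1.49 FPKM (153 and 235 counts), a ratio of 1.41 (1.15 to 1.74). *SMAD7* (ENSG00000101665, chromosome 18), which blocks both the BMP and the TGF-β branch, was at 0.436 FPKM in the shCtrl library and 0.512 in the shESE1 library, from 149 and 191 counts. Its ratio of 1.18 had an interval of 0.944 to 1.47, so a difference was not detectable at this depth. The sum of the 3 inhibitors was 2.78 FPKM in the shCtrl library and 4.25 in the shESE1 library, and *SMAD6* held 46.4% and 52.9% of it.

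**Figure D3:**
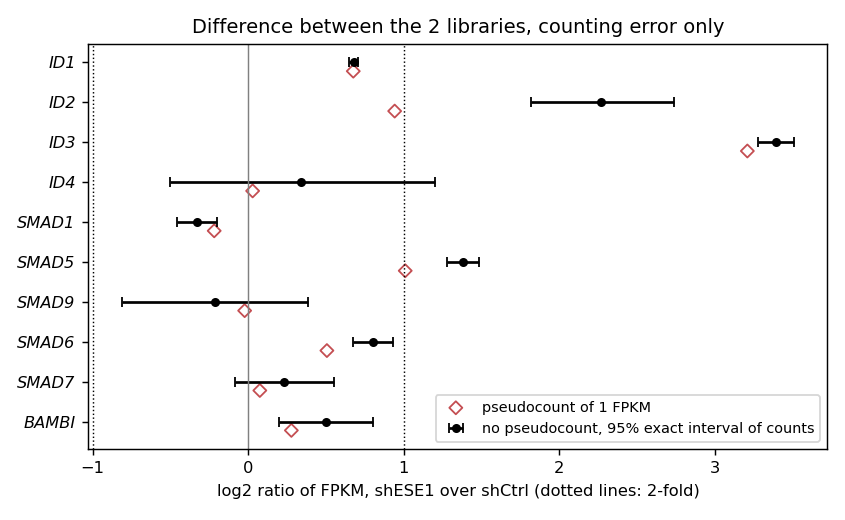
Log2 ratio of FPKM of shESE1 over shCtrl for each gene (horizontal axis). Black points have no pseudocount and bars are the 95% exact interval from the counts, and red diamonds are the log2 change with a pseudocount of 1 FPKM. The bars of *ID3*, *ID2* and *SMAD5* lie beyond 2-fold, those of *ID4*, *SMAD9* and *SMAD7* span 0, and *SMAD1* lies below 0.

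By level, the 10 genes ran in shCtrl from *ID1* over *ID3*, *SMAD1*, *SMAD5*, *SMAD6*, *BAMBI*, *SMAD7*, *ID2* and *SMAD9* to *ID4*. In shESE1 the order was *ID1*, *ID3*, *SMAD5*, *SMAD6*, *SMAD1*, *ID2*, *BAMBI*, *SMAD7*, *SMAD9* and *ID4*. With 1 library per condition, no spread between cultures is known for any neighbours in this order. *ID1* and *ID3* were thus the only ones above 5 FPKM in either library, and the SMADs stayed between 0.112 and 4.47 FPKM.

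The directions were kept under most other scalings. Over the reported scale, 5 other scalings and 2 other pseudocounts, all 8 settings gave positive log2 changes for *ID1*, *ID2*, *ID3*, *ID4*, *SMAD5*, *SMAD6*, *SMAD7* and *BAMBI* and negative ones for *SMAD1*, while *SMAD9* turned from −0.02 to 0.01 as TPM. The median log2 change of all genes was 0.02 on the reported scale, 0.20 as TPM and −0.10 without mitochondrial genes in the totals. *ID3* was at least 2-fold higher under all 8 settings (2.68 to 3.59), *SMAD5* under 5 and *ID2* under 3.

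**Figure D4:**
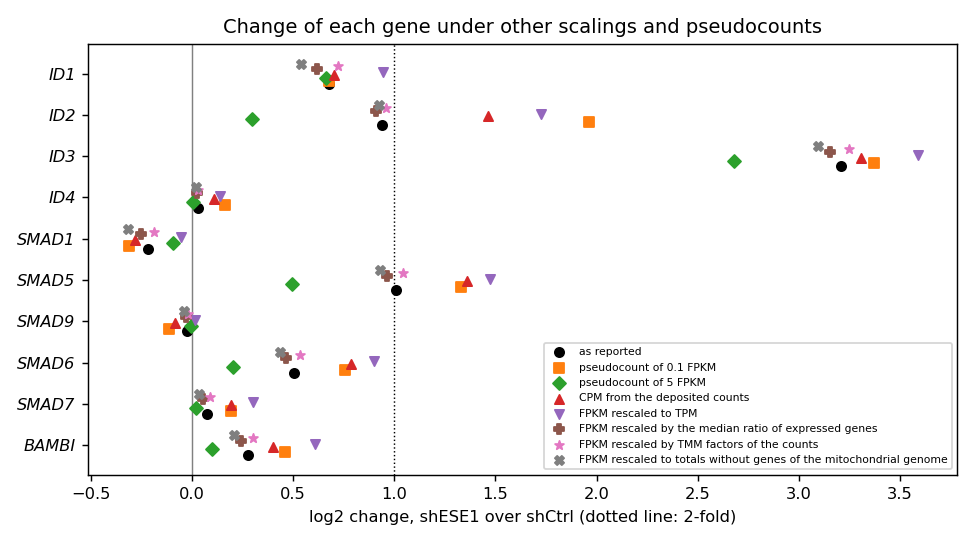
Log2 change of shESE1 over shCtrl (horizontal axis) for each gene under the reported setting (black) and 7 others. *ID3* stays between 2.68 and 3.59, the points of *ID2* run from 0.30 to 1.96 and those of *SMAD5* from 0.50 to 1.47, on both sides of 2-fold.

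Upstream of the SMADs, the measured ligand and receptor genes were under 2-fold on the pseudocount scale, and some of the low ones were past it without the pseudocount. The lists of pathway genes described here were drawn up with earlier results of these data known. Shares of all genes with more or less FPKM are not given here, so counts of direction within a list describe that list only. Of 14 BMP ligand genes 9 had counts, 5 with more FPKM in shESE1 and 4 with less, and 3 reached 1 FPKM. *BMP7*, the most abundant, was at 11.7 FPKM in the shCtrl library and 7.82 in the shESE1 library (log2 change −0.52), and *BMP8B* at 4.21 and 4.73 (0.14). *BMP4* passed the filter only through shESE1 (0.975 and 1.88 FPKM, 0.54). *BMP2*, under the filter, had 66 and 161 counts, a ratio of 2.27 (1.69 to 3.07). Also under the filter, *BMP6* had 8 and 47 counts, a ratio of 5.65 (2.64 to 13.8). *GDF6*, with 16 and 6 counts, was 3.26-fold lower in shESE1, and *GDF7* had 26 and 0 counts.

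Of 11 receptor and co-receptor genes 10 had counts, 1 with more FPKM in shESE1 and 9 with less, and 3 were above 1 FPKM in both libraries. These were the type I receptor genes *BMPR1A* (3.06 and 2.97 FPKM) and *ACVR1* (2.40 and 1.87) and the type II receptor gene *BMPR2* (2.05 and 1.30). The direction of *BMPR1A* was within counting error (ratio 0.970, interval 0.911 to 1.03). So was that of *RGMA*, under the filter (0.991, 0.718 to 1.37), and *ACVRL1* had only 4 and 0 counts. Of the 5 that reached 1 FPKM in either library, 1 was above 0 in log2 change as TPM and after TMM scaling. *RGMB*, a co-receptor gene, and *ACVR2A* passed the filter only through shCtrl, so they could only be lower (1.64 and 0.692 FPKM, and 1.05 and 0.720). Without the pseudocount *RGMB* was 2.37-fold lower in shESE1 (ratio 0.422, interval 0.370 to 0.480). *ENG*, under the filter with 46 and 18 counts, was 2.90-fold lower (ratio 0.345, interval 0.188 to 0.606). The one higher gene was the type II receptor gene *ACVR2B*, under the filter, with 201 and 509 counts and a ratio of 2.33 (1.98 to 2.76).

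The secreted BMP antagonists differed in both directions. Of 14 such genes 11 had counts, 4 with more FPKM in shESE1 and 7 with less. Of the 5 that reached 1 FPKM, 1 was at least 2-fold higher and 0 were at least 2-fold lower, beside 3.14% and 3.26% of all genes. The number at least 2-fold higher was 2 as CPM and 3 as TPM. *FSTL3*, a follistatin relative that mainly binds activin, was at 13.0 FPKM in the shCtrl library and 41.1 in the shESE1 library, from 2657 and 9152 counts (log2 change 1.59). *NBL1*, a member of the DAN family of BMP antagonists, was at 15.0 and 29.6 FPKM (0.93), and *FST*, which encodes follistatin, at 19.0 and 29.5 FPKM (0.61). *NOG*, which encodes the BMP trap noggin, had 29 counts in shCtrl and 161 in shESE1 (0.219 and 1.14 FPKM) and passed the filter only through shESE1. *TWSG1* was lower, at 7.53 and 5.56 FPKM (−0.38), and *CHRD*, which encodes the BMP trap chordin, was under the filter, with 157 and 76 counts (2.35-fold lower without the pseudocount).

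*SMAD2*, *SMAD3* and *SMAD4* stayed within −0.14 and 0.02 in log2 change, whereas the intracellular regulators differed in both directions. *SMAD4*, the common partner, was at 1.78 FPKM in the shCtrl library and 1.65 in the shESE1 library, and *SMAD3*, which carries TGF-β rather than BMP signals, at 10.3 and 10.5. Of 16 regulators of SMAD activity or stability, all 16 were above 1 FPKM in both libraries, 7 with more FPKM in shESE1 and 9 with less, and 0 passed 2-fold in either direction (−0.56 to 0.87). As TPM, where the median of all genes was 0.20, 10 were higher, 1 of them at least 2-fold, and 6 lower. The largest differences among them were in *CTDSP1*, a phosphatase gene (9.14 and 17.6 FPKM, log2 change 0.87), and *CTDSP2*, its relative (23.4 and 15.5 FPKM, −0.56). *NEDD4L* and *SMURF1*, which encode ubiquitin ligases for SMADs, were also lower, *NEDD4L* at 2.37 and 1.35 FPKM (−0.52) and *SMURF1* at 8.61 and 5.97 FPKM (−0.46).

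The difference of *ID3*, by which the group was chosen, is no yardstick for other genes. Other known BMP target genes differed in both directions. Of 16 listed, 15 had counts, 7 with more FPKM in shESE1 and 8 with less. Of the 8 that reached 1 FPKM 0 were at least 2-fold higher or lower, beside 3.14% and 3.26% of all genes. However, 1 was at least 2-fold higher as CPM and after TMM scaling and 2 as TPM. The homeobox gene *MSX2* was at 8.63 FPKM in the shCtrl library and 16.5 in the shESE1 library (0.86). *TNFRSF11B*, which encodes osteoprotegerin, passed the filter only through shESE1, at 0.505 and 1.97 FPKM (0.98). Its ratio without the pseudocount was 3.90 (3.07 to 4.99). Under the filter, *HEY1* had 312 and 77 counts, 4.45-fold lower in FPKM without the pseudocount, and *GATA3* had 109 and 50, 2.45-fold lower. *ATOH8*, also under the filter, was higher, with 30 and 77 counts and a ratio of 2.33 (1.51 to 3.68). *JUNB* (38.5 and 35.4 FPKM), the most abundant, and *HES1* (15.0 and 15.7 FPKM) differed little (−0.12 and 0.06).

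Among the partners that ID proteins bind, the E protein genes differed in opposite directions. *TCF3* was at 7.75 FPKM in the shCtrl library and 12.4 in the shESE1 library (log2 change 0.62), *TCF12* at 8.30 and 5.67 (−0.48) and *TCF4* at 0.322 and 0.213. Their sum was 16.4 FPKM in the shCtrl library and 18.3 in the shESE1 library. The summed *ID* level was 11.5 times the summed E protein level in shCtrl and 19.7 times in shESE1, and *ID3* alone was 0.404 times and 3.78 times. Of 19 genes for E proteins and other bHLH factors 5 reached 1 FPKM. Beside 3.14% and 3.26% of all genes, 0 were at least 2-fold higher and 1 was at least 2-fold lower. That 1 was *BHLHA15*, a factor of secretory cells (2.67 and 0.640 FPKM, −1.16), which passed the filter only through shCtrl. *BHLHE40* was the most abundant (49.1 and 53.4 FPKM).

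Of 5 genes for cell cycle inhibitors, on which E proteins are known to act, 4 reached 1 FPKM. Of these 1 was at least 2-fold higher and 0 were at least 2-fold lower, beside 3.14% and 3.26% of all genes. *CDKN1A*, which encodes p21, was at 6.09 FPKM in the shCtrl library and 16.3 in the shESE1 library (log2 change 1.28). *CDKN2B* was at 10.5 and 5.23 (−0.88), 2.00-fold lower without the pseudocount. Without mitochondrial genes in the totals, 1 gene of this list was at least 2-fold higher and 1 at least 2-fold lower. *CDKN2A* was the most abundant in shESE1, at 24.0 FPKM beside 16.7 in shCtrl. Genes for other factors known to induce *ID* genes were not higher, with 0 of 6 past 2-fold and a median log2 change of −0.40. *STAT3* was at 16.1 and 11.8 FPKM (−0.42), *EGR1* at 11.5 and 7.70 (−0.52) and *MYC* at 5.83 and 4.01 (−0.45). All 6 log2 changes were below 0 except that of 1 gene as TPM. Over all 104 listed pathway genes, 55 reached 1 FPKM, of which 2 were at least 2-fold higher and 1 lower, beside 3.14% and 3.26% of all genes.

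**Figure D5:**
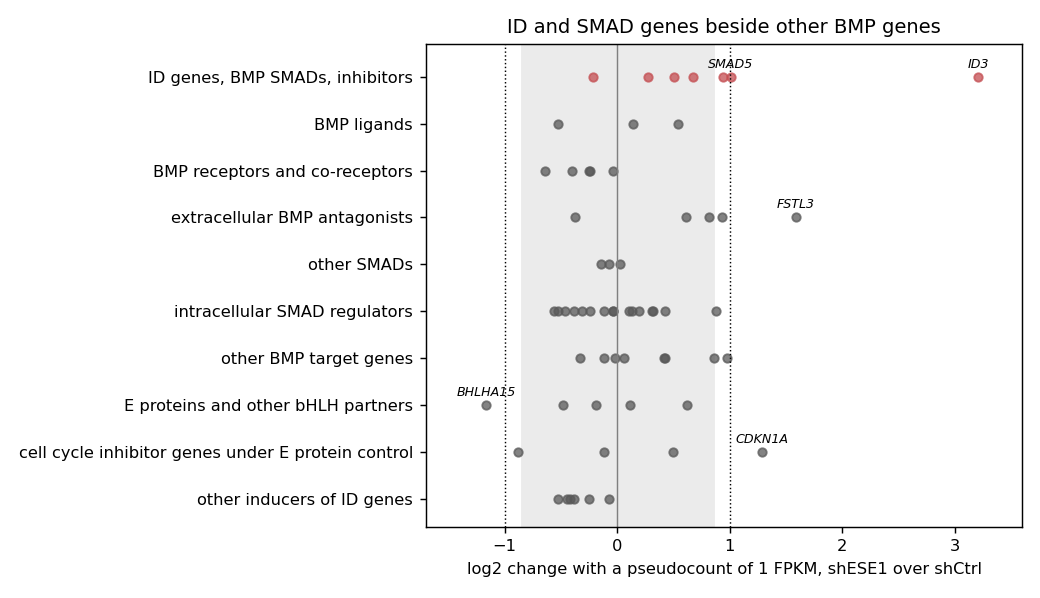
Log2 change with a pseudocount of 1 FPKM (horizontal axis) of each gene past 1 FPKM, by group. *BMP4*, *NOG*, *TNFRSF11B* and *ID2* passed only through shESE1 and *ACVR2A*, *RGMB* and *BHLHA15* only through shCtrl. The grey band holds the middle 90% of all genes compared, from −0.84 to 0.86, and *ID3* at 3.21 lies farthest from it.

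The measured neighbour of *ID3* on chromosome 1 was under 2-fold on the reported scale. Within 100 kb of *ID3* there were 5 other genes, of which 1 reached 1 FPKM, *E2F2*, an S-phase transcription factor gene (1.91 FPKM in the shCtrl library and 3.73 in the shESE1 library, log2 change 0.70). Near all 10 genes, 69 other genes were listed within 100 kb, 11 reached 1 FPKM and 0 were at least 2-fold higher or lower (−0.54 to 0.70). Of the 9 genes that overlap one of the 10, the antisense genes *ID2-AS1* (15 and 0 counts) and *SMAD5-AS1* (7 and 36 counts) had counts and the others had 0 in both libraries. The libraries keep the strand of the RNA, but whether the counting used it is not given in the sources used here. Beside them, *ID2* had 49 and 251 counts and *SMAD5* 1049 and 2970.

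To see whether another gene could have taken their reads, the annotated transcripts (GENCODE 29) were cut into stretches of 100 bases at steps of 10. Of the 10 genes 9 had no such stretch in common with another gene, and *SMAD5* had 3 of 2042. Transcripts were compared in their own orientation only, so antisense overlaps such as *ID2-AS1* and *SMAD5-AS1* were not covered.

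Of protein-coding genes with at least 5 FPKM in 1 library, the 5 whose log2 change was nearest that of *ID3*, a likeness over 2 libraries and thus over a single difference, were *C1GALT1C1* (3.15), *AC004922* (3.08), *AL136295*, *SPC24* (2.97) and *TOMM6* (3.49). *C1GALT1C1*, which encodes a chaperone of O-glycan synthesis, and *SPC24*, of the kinetochore, had 0% in common with other genes. *AC004922*, *AL136295* and *TOMM6* had 83.8%, 96.2% and 100% of their stretches in common with other genes, so their values are uncertain. *AL136295* went from 0 to 1964 counts, which is at least 612-fold higher against a floor of 3 counts per library.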

How the data were processed

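RNA of 1 shCtrl and 1 shESE1 culture of L3.6 cells was sequenced in paired ends from strand-keeping poly(A) libraries. Per gene, the authors deposited FPKM and a raw count. Genes that had no reads carry an FPKM of 0.0001, here set to 0. Tools named by the submitters' processing notes are HISAT2, StringTie and fastp, and builds are GRCh38 and mm10. Gene positions are human GRCh38. Versions, roles and the counting tool were not given in the sources used here.

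Total counts were 56853971 and 60786475. The measure was the log2 ratio of FPKM with a pseudocount of 1, over genes that reached 1 FPKM in 1 library or both, with a threshold of 2-fold. Clopper-Pearson intervals (95%) of the counts cover counting error only, and a floor of 3 counts stood for 0. No test was possible with 1 library per condition.

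The 10 genes, the gene lists and the alternatives were chosen with earlier results of these data known. Named were the 10 genes, listed genes past 2-fold, the most abundant gene of each list, the 5 genes nearest *ID3* in change, and overlapping or changed genes within 100 kb, and further listed genes were picked after their values were seen. Upstream windows came from RefSeq (GRCh38.p14, 10 of 10 genes matched) and shared 100-base words from GENCODE 29. The steps were tested on simulated counts with counting error only. Changes were planted only in genes at 5 FPKM or more in shCtrl, so changes near 2-fold or near 1 FPKM were not tested. Alternatives were pseudocounts of 0.1 and 5 FPKM, filters, a 1.5-fold threshold, CPM, TPM, median ratio and TMM scaling and totals without mitochondrial genes. Software was scipy 1.17.1, numpy 2.4.6, matplotlib 3.10.9, pandas 2.3.3 and Python 3.11.15.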

Additional observations from a re-analysis of the deposited data

How the results depend on the processing

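*ID3* kept its direction and at least 2-fold under all alternatives run, its log2 change being 3.37 at a pseudocount of 0.1 FPKM, 2.68 at 5 FPKM and 3.59 as TPM. The number of the 10 genes at least 2-fold higher, 2 as reported, was 1 with a pseudocount of 5 FPKM, a filter of 5 FPKM, median ratio scaling or mitochondrial genes left out of the totals, 3 with a pseudocount of 0.1 FPKM, as CPM or as TPM, and 4 at 1.5-fold. No alternative made any of the 10 at least 2-fold lower. Of the listed pathway genes, 2 higher and 1 lower as reported, there were 4 and 2 with a pseudocount of 0.1 FPKM, 1 and 0 with 5 FPKM, 5 and 3 as CPM, 7 and 2 as TPM and 9 and 3 at 1.5-fold, with 0 lower at a filter of 5 FPKM and 2 lower without mitochondrial genes in the totals. Over all genes, 393 higher and 408 lower as reported became 644 and 958 with a pseudocount of 0.1 FPKM and 142 and 110 with 5 FPKM. They became 622 and 1021 as CPM, 1432 and 873 as TPM and 293 and 568 without mitochondrial genes in the totals. At 1.5-fold they were 1526 and 1444, and at a filter of 5 FPKM 300 and 230. The genes past the filter numbered 12520 as reported, 6764 at 5 FPKM, 15238 as CPM and 16416 as TPM. These counts are thus not over the same genes. The cause of the differences between settings was not tested. For the other 9 genes, 45 of 63 alternative values moved by less than the counting interval. No paired analysis was possible because each condition has 1 library, and for the same reason none could be left out. The depth limits *ID4*, *SMAD9* and *SMAD7*, whose counts lay between 22 and 191.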
